A study of Mus musculus with 4 samples.

Results

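The enzymes that add or remove methyl and acetyl groups on histone lysines were followed in mouse DC2.4 cells after ginsenoside Rb1. Members were the protein-coding genes of the deposited count table whose symbols begin with Kdm, Kmt, Setd, Hdac, Sirt or Kat and a number, with Setdb genes, Ezh1 and Ezh2, and without Kdm3a. This gave 63 of the 54532 genes listed. DC2.4 cells are an immortalised line of mouse dendritic cells. Rb1 stands here for the ginsenoside, a saponin from ginseng root with a triterpene core, and not for the retinoblastoma gene. The cells received Rb1 at 10 uM or vehicle for 24 h, with 2 libraries in each group. The labels give no genotype change and no other agent in either group, and they call the libraries biological replicates.

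Histone lysines carry methyl and acetyl groups that help to set which genes a cell transcribes. Writers add them: lysine methyltransferases use S-adenosylmethionine, and lysine acetyltransferases use acetyl-CoA. Erasers remove them: demethylases use flavin or iron with 2-oxoglutarate, the Hdac enzymes use zinc, and the sirtuins use NAD. In dendritic cells such enzymes are known to act on inflammatory and antigen-presentation genes. Several members also act on proteins other than histones, or have a disputed activity, and these are named as such.

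Libraries held 17829784 to 18378029 counts with Rb1 and 17908591 to 18641021 counts with vehicle. Among 9 dendritic cell markers, 6 had enough counts to be tested and Flt3, Batf3 and H2-Ab1 lay below 1 CPM in all 4 libraries. Summed over the 9, the level was 863 to 887 CPM with Rb1 and 1358 to 1371 CPM with vehicle, with 2 markers higher and 4 lower. That sum rests mostly on Cd74, with 518 and 495 CPM with Rb1, against 1054 and 1057 CPM with vehicle. Itgax fell most of the 6, with 3.55 and 3.10 CPM with Rb1, against 27.6 and 30.3 CPM with vehicle. Its log2 fold change, Rb1 over vehicle, was -3.12. The 2 higher markers were Ptprc and Zbtb46. Ptprc had 237 and 241 CPM with Rb1, against 107 and 113 CPM with vehicle. Zbtb46 had 6.35 and 5.62 CPM with Rb1, against 2.21 and 1.84 CPM with vehicle. The 5 macrophage markers summed to 992 to 996 CPM with Rb1 and 1589 to 1619 CPM with vehicle; 4 were tested, all were lower, and Mertk was at or near 0. Of 5 fibroblast markers only Dcn was tested, and it was lower. Epithelial, T cell and B cell markers summed to less than 1 CPM in every library. The part of these differences in the results below was not tested. In bulk RNA, fewer cells of a type and less RNA per cell cannot be told apart.

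Stretches of promoter are shown, for the members with the largest rise, the largest fall and the smallest p. Each is 250 bases that end just before the start of the gene model, read 5′ to 3′ on the gene's strand, from RefSeq on GRCm38.p6. Capitals mark CCAAT and GGGCGG on the strand shown or its reverse. The Hdac9 window is chr12:34917096-34917345 on the minus strand, the Hdac7 window is chr15:97844503-97844752 on the minus strand, and the Kmt5a window is chr5:124439680-124439929 on the plus strand.
Hdac9: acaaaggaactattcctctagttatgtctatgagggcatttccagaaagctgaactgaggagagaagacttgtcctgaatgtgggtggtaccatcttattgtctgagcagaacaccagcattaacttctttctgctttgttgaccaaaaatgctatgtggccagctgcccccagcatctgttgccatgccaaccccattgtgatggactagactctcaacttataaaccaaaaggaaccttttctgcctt
Hdac7: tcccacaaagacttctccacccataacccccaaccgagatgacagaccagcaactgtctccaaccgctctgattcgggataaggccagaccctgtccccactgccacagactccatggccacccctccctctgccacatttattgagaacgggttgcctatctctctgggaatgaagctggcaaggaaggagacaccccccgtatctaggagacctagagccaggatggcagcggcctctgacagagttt
Kmt5a: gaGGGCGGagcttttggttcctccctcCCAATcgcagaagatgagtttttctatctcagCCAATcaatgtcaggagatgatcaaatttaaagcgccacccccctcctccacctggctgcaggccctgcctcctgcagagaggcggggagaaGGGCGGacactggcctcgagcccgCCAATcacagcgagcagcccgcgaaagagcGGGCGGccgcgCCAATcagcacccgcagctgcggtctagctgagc
The Kmt5a window holds 4 CCAAT and 3 GGGCGG matches, and the Hdac9 and Hdac7 windows hold 0 of each. A window was matched for 51 of the 63 members, at the RefSeq start nearest the start of the gene model. For Sirt1, Setd5, Kat6b and Hdac4 that RefSeq start lay 42669, 27570, 18336 and 15358 bases away. Of the 51 windows, 45.1% hold CCAAT and 52.9% hold GGGCGG, against 35.2% and 39.5% of 20475 windows of all genes. Those 20475 include genes with too few counts to be tested, and no share over tested genes alone was taken. Also searched on both strands were CACGTG and the E2F words TTTGGCGC, TTTCCCGC and TTTCGCGC. CACGTG stood in 5.88% of member windows and 6.43% of all windows, and an E2F word in 3.92% and 1.88%. Among the 34 matched members that were higher with Rb1, 44.1% hold CCAAT, and among the 6 that were lower, 33.3% do. GGGCGG stood in 50% of the higher and 66.7% of the lower members. Of the 6 lower windows, 2 hold CCAAT and 4 hold GGGCGG, too few for a comparison with the higher members. A match is a description of the letters and not a binding site.

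Across the family, 61 members had enough counts to be tested. With Rb1, 43 were higher and 9 lower, and 9 did not pass the threshold, an adjusted p of 0.05 over all 13518 genes tested. Of all genes tested, 35.7% were higher and 36.3% lower, or 72.0% in either direction. The median log2 fold change was 0.58 over members and -0.01 over all genes. All 28 writers were tested: 24 were higher, 0 lower and 4 not called, with a median of 0.74. By DESeq2, by limma-trend on FPKM and at an unadjusted p of 0.05, the count of lower writers was also 0. Of 35 erasers, 33 were tested: 19 were higher, 9 lower and 5 not called, with a median of 0.30. The 9 lower members were Kdm4b, Kdm5b, Hdac1, Hdac3, Hdac7, Sirt2, Sirt5, Sirt6 and Sirt7. Scaled to plain library totals, the median of all genes moved by 0.25, and 48 members were then higher and 8 lower, where 45.3% and 27.1% of all genes were. Hdac3 lost its call with that scaling (adjusted p = 0.134).

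The medians of writers and erasers lay 0.44 apart on the log2 scale. Within replicate 1 alone the difference was 0.33 and within replicate 2 alone it was 0.41. Groups did not overlap for 47 members that were higher and 9 that were lower, where 43.0% and 43.3% of all genes did not overlap in each direction. At least 2-fold changes were called for 16 members that were higher and 2 that were lower, where 14.2% and 16.2% of all genes were past that size. These 16 were 8 writers and 8 erasers, and both lower ones, Hdac7 and Sirt2, were erasers.

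**Figure D1:**
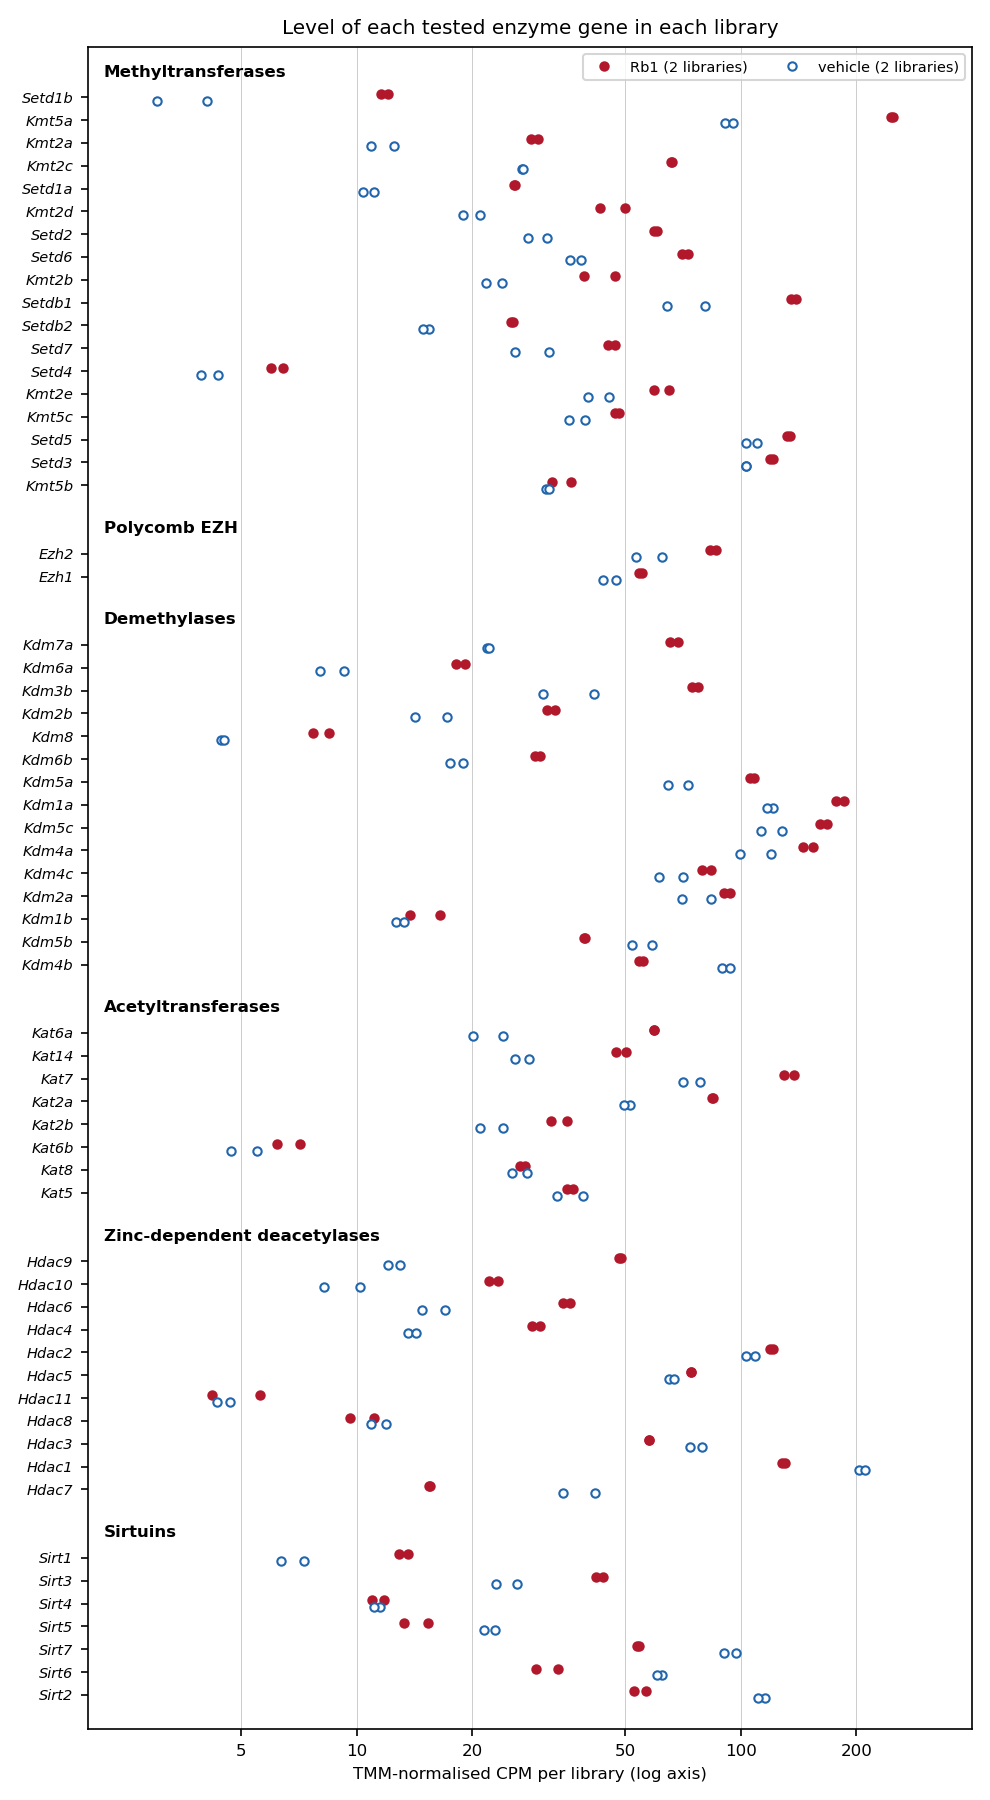
TMM-normalised CPM (log axis) of the 61 tested members, ordered by fold change within each class, with a point for each of the 2 libraries per group, Rb1 in filled red and vehicle in open blue. Hdac9, Kdm7a and Setd1b show the widest gaps in favour of Rb1, while Hdac7 and Sirt2 lie lower with Rb1.

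In the plot of levels by library the groups overlap for 5 of the 61 members: Kat5, Kat8, Hdac8, Hdac11 and Sirt4. Levels below are CPM after TMM normalization, and fold changes are Rb1 over vehicle with a standard error (SE) from edgeR's quasi-likelihood test, n = 2 per group.

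Gene length moved with the groups and bears on a family of long genes. Gene models over 8 kb took 16.7% ± 0.120 of counts with Rb1 and 9.72% ± 0.795 with vehicle (SD, n = 2 each). Those under 1 kb took 4.58% ± 0.0734 with Rb1 and 6.84% ± 0.529 with vehicle. Over all genes the median log2 fold change ran from -0.60 under 1 kb through -0.54, -0.27, -0.05 and 0.28 to 0.65 over 8 kb. The median gene model was 6035 bases over members, 6824 over writers and 5817 over erasers, against 3855.5 bases over all genes tested. The trend was present in both replicate pairs and goes with the treatment, so a change in the cells and one made in preparing the libraries cannot be told apart here.

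Counts were also taken within ranges of length, with no test of a difference between writers and erasers. From 3 to 5 kb, 5 of 5 writers were higher, against 2 of 7 erasers with 3 lower, where 33.2% of all genes of that length were higher and 37.4% lower. From 5 to 8 kb, 8 of 8 writers were higher, against 8 of 13 erasers with 4 lower, where 49.3% of all genes were higher and 24.6% lower. Over 8 kb, 10 of 12 writers were higher, and 8 of 10 erasers with 1 lower, where 68.3% of all genes were higher and 13.7% lower. The medians over 8 kb were close, at 0.97 for writers and 1.05 for erasers. Members under 3 kb were too few to read: Setd6 and Kdm8 were higher, Sirt6 was lower, and Kat5, Kat8 and Sirt4 were not called.

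**Figure D2:**
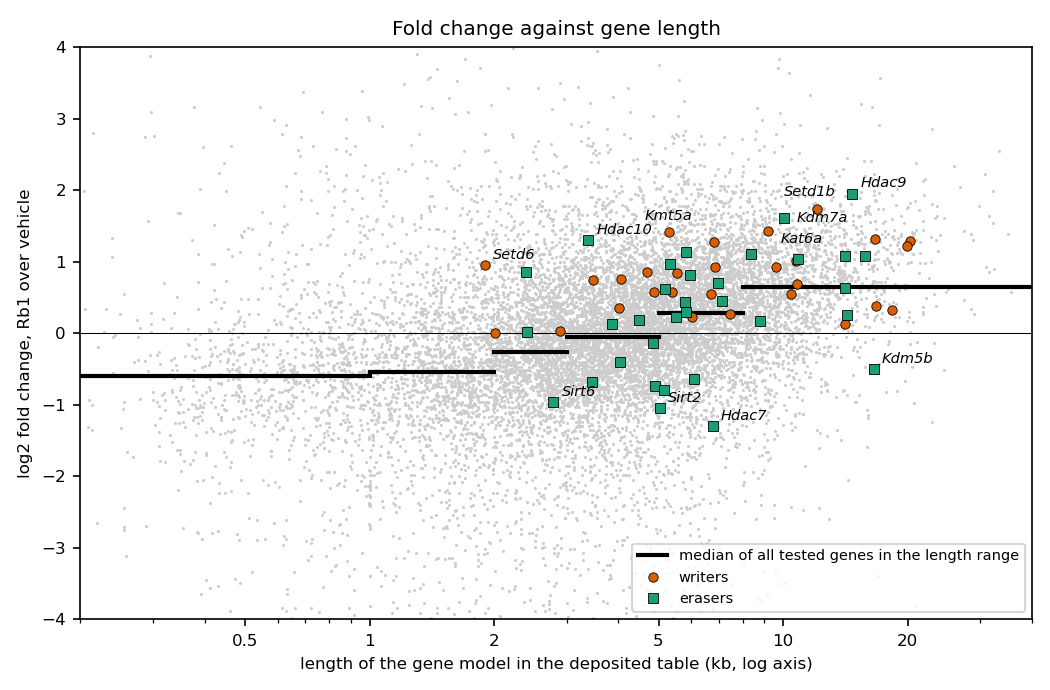
Log2 fold change, Rb1 over vehicle, against the deposited length of the gene model (kb, log axis) for tested genes (grey), writers (orange circles) and erasers (green squares). Black lines give the median of all tested genes in each of 6 length ranges, from -0.60 to 0.65; 403 grey genes fall outside the axes.

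With the length trend of each library removed before the test, 31 members were higher and 15 lower, where 33.6% of all genes were higher and 36.4% lower. Writers were then 18 higher and 3 lower with a median of 0.38, and erasers 13 higher and 12 lower with a median of 0.11. Of the 43 members higher as counted, 30 stayed higher with length alone removed. Another 10 lost the call: Kmt2d, Kmt2e, Setd3, Setd4, Setd7, Ezh1, Kdm4c, Kdm5c, Hdac2 and Hdac4. Setd5, Kdm2a and Kdm5a turned to lower. All 9 lower members stayed lower, joined by Kmt5b, Kat6b and Hdac5 from those not called, and Kat5 became higher. With the GC trend removed too, 36 members were higher and 15 lower, where 33.8% and 36.4% of all genes were. In that fit 33 of the 43 stayed higher, 7 lost the call and 3 turned to lower, and Kat5, Kat8 and Sirt4 became higher.

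**Figure D3:**
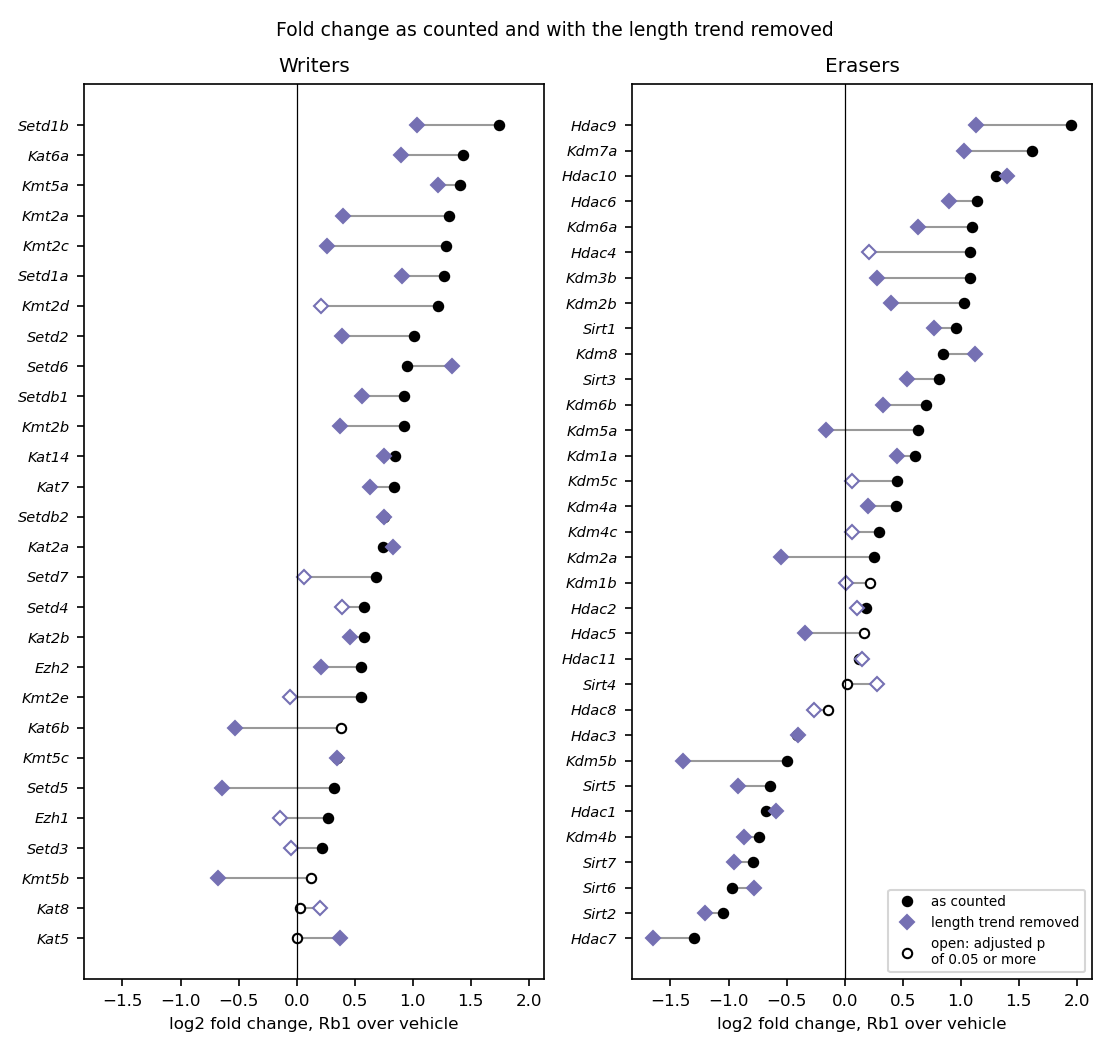
Log2 fold change, Rb1 over vehicle, of the 28 tested writers (left) and 33 tested erasers (right), as counted (circles) and with the length trend removed (purple diamonds); open marks have an adjusted p of 0.05 or more. Most diamonds lie left of their circles, and the 9 members lower as counted keep filled diamonds below 0.

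Methyltransferases other than Ezh1 and Ezh2 were higher in 17 of 18 cases, where 35.7% of all genes were higher and 36.3% lower. Their median log2 fold change was 0.92. With the length trend removed, 11 were higher and 2 lower, with a median of 0.38. Of the writers of H3K4 methylation, a mark of promoters and enhancers, 7 of 7 were higher with a median of 1.27. Their median model is 12068 bases, and 68.3% of all genes over 8 kb were higher. After removal of the length trend, 5 of them remained higher and the median was 0.37, against 0.38 over the class and 0.65 over the pair of H3K9 writers.

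Setd1b and Setd1a are the catalytic subunits of the complexes that lay down most H3K4 trimethylation. Setd1b had 12.1 and 11.6 CPM with Rb1, against 4.07 and 3.03 CPM with vehicle. Both Rb1 libraries lay well above both vehicle libraries, 3.33-fold on average, the largest rise among writers (log2 fold change 1.74, SE 0.18, adjusted p = 4.4e-06). Setd1a had 25.8 and 25.7 CPM with Rb1, against 10.4 and 11.1 CPM with vehicle, and its log2 fold change was 1.27 (SE 0.11, adjusted p = 1.4e-06). Their log2 fold changes were 1.04 and 0.91 once the length trend was removed, and both stayed higher. The annotation places Gm49388 on the same strand over 51.8% of the Setd1a exons, and its own row held 0 counts.

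Kmt2a, Kmt2b, Kmt2c and Kmt2d encode large H3K4 methyltransferases of the MLL family, the first pair acting mostly at promoters and the last pair at enhancers. Kmt2a had 29.6 and 28.5 CPM with Rb1, against 12.5 and 10.9 CPM with vehicle. Kmt2c had 65.9 and 66.1 CPM with Rb1, against 26.9 and 27.1 CPM with vehicle. Kmt2d had 50.1 and 42.9 CPM with Rb1, against 20.9 and 18.9 CPM with vehicle. In each of the 3 the groups lay far apart, with rises of 2.47-fold, 2.44-fold and 2.33-fold (adjusted p = 1.2e-06, 1.0e-07 and 1.3e-06). Kmt2b rose less, 1.89-fold, with 47.1 and 39.2 CPM in Rb1 cells and 21.7 and 23.9 CPM in vehicle cells (adjusted p = 1.6e-05). Their models are 9596 to 20291 bases long. After removal of the length trend the log2 fold changes of Kmt2a, Kmt2b and Kmt2c were 0.40, 0.37 and 0.26 and remained called. Kmt2d, at 0.21, did not pass (adjusted p = 0.113), but was called higher with the GC trend removed too, at 0.39 (adjusted p = 0.00587).

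Setd7, a monomethyltransferase of H3K4 and of other proteins, had 45.2 and 47.1 CPM with Rb1, against 25.9 and 31.6 CPM with vehicle. It rose 1.61-fold as counted (adjusted p = 1.1e-04), and with the length trend removed the log2 fold change was 0.06 (adjusted p = 0.571). Kmt2e, a relative of this family with no accepted methyltransferase activity, had 59.5 and 65.2 CPM with Rb1, against 40.1 and 45.3 CPM with vehicle. Its rise of 1.46-fold (adjusted p = 2.3e-04) likewise gave -0.06 with the length trend removed (adjusted p = 0.504). Exons of Srpk2 on the opposite strand cover 9.31% of the Kmt2e exons, and reads there could not be assigned without knowing how strand was used.

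Kmt5a, which places the single methyl group on H4K20 and is needed for chromosome condensation and replication licensing, had the smallest p of all members. It had 249 and 246 CPM with Rb1, against 91.2 and 95.5 CPM with vehicle. The gap was many times the difference between replicates, and the rise was 2.65-fold (log2 fold change 1.41, SE 0.07, adjusted p = 1.3e-08). Length changed it little: its model of 5307 bases lies in a range where all genes had a median of 0.28, and it kept 1.22 with the trend removed. The gene lies at chr5:124439930-124462308 (GRCm38, plus strand), directly after the promoter shown above.

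The enzymes that add further methyl groups to H4K20 moved less. Kmt5c had 48.2 and 47.2 CPM with Rb1, against 35.7 and 39.3 CPM with vehicle, a rise of 1.27-fold (adjusted p = 0.00391) that was as large, 0.35 on the log2 scale, with the length trend removed. Kmt5b had 36.2 and 32.2 CPM with Rb1, against 31.2 and 31.6 CPM with vehicle, and did not pass (adjusted p = 0.270). Kmt5b was called lower with the length trend removed, at -0.68 (adjusted p = 2.1e-05), and higher with library totals, at 0.37 (adjusted p = 0.00426), so its direction depends on the scaling.

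Setd2, the enzyme of H3K36 trimethylation on transcribed genes, had 59.3 and 60.7 CPM with Rb1, against 28.0 and 31.3 CPM with vehicle. Both Rb1 libraries were above both vehicle libraries, and the rise was 2.02-fold (log2 fold change 1.01, SE 0.09, adjusted p = 1.2e-06), or 0.39 on the log2 scale with the length trend removed (adjusted p = 4.1e-04). Setdb1, which trimethylates H3K9 to silence retroelements, had 135 and 139 CPM with Rb1, against 64.3 and 80.7 CPM with vehicle. It rose 1.89-fold (adjusted p = 6.6e-06), more than the vehicle libraries differed between themselves. Its relative Setdb2 had 25.3 and 25.6 CPM with Rb1, against 15.4 and 14.9 CPM with vehicle, a rise of 1.68-fold (adjusted p = 5.7e-05). Both H3K9 writers stayed higher with the length trend removed, at 0.56 and 0.75.

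The remaining methyltransferases are known for targets outside histones or have a disputed target. Setd6, a methyltransferase of the NF-kB subunit RelA, had 70.5 and 72.7 CPM with Rb1, against 38.4 and 35.9 CPM with vehicle. It rose 1.93-fold (adjusted p = 1.2e-06) although its model of 1903 bases lies in a range where all genes had a median of -0.54, and with the length trend removed its log2 fold change was 1.34. Setd3, an actin histidine methyltransferase, had 119 and 121 CPM with Rb1, against 103 CPM in both vehicle libraries. That rise of 1.16-fold (adjusted p = 0.0157) did not pass without Rb1 replicate 1 (adjusted p = 0.138), without Rb1 replicate 2 (adjusted p = 0.183) or with the length trend removed (-0.05, adjusted p = 0.444).

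Setd4, whose targets are debated, had 6.45 and 5.98 CPM with Rb1, against 4.37 and 3.93 CPM with vehicle, the lowest tested level of the class in Rb1 cells. Its rise of 1.50-fold (adjusted p = 0.0142) did not pass without Rb1 replicate 1 (adjusted p = 0.0902), by DESeq2 (adjusted p = 0.131) or with the length trend removed (adjusted p = 0.0761). With the GC trend removed too, Setd4 was called higher, at 0.52 (adjusted p = 0.0240). Setd5, a SET protein of disputed activity, had 132 and 134 CPM with Rb1, against 103 and 110.2 CPM with vehicle. It rose 1.25-fold (adjusted p = 0.00200) and turned to lower with the length trend removed, at -0.64 (adjusted p = 5.0e-07).

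Ezh2 and Ezh1 are the alternative catalytic subunits of Polycomb repressive complex 2, which methylates H3K27. Ezh2 had 86.2 and 83.1 CPM with Rb1, against 53.3 and 62.5 CPM with vehicle, and rose 1.46-fold (log2 fold change 0.55, SE 0.09, adjusted p = 2.1e-04). It kept 0.21 with the length trend removed (adjusted p = 0.0203), and with the GC trend removed as well it had 0.16 and did not pass (adjusted p = 0.0638). Ezh1 had 54.4 and 55.5 CPM with Rb1, against 43.8 and 47.3 CPM with vehicle, and rose 1.21-fold (adjusted p = 0.0123). The Ezh1 call ended without Rb1 replicate 1 (adjusted p = 0.0799) or without replicate 2 of Rb1 (adjusted p = 0.116), by DESeq2 (adjusted p = 0.051), and with the length trend removed, where its sign turned (-0.14, adjusted p = 0.0865).

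Acetyltransferases were higher in 5 of 8 cases and lower in 0, where 35.7% of all genes were higher and 36.3% lower. Their median log2 fold change was 0.66. With the length trend removed, 6 were higher and 1 lower, with a median of 0.54. Kat6a, the MOZ enzyme of H3 acetylation, had 59.5 and 59.4 CPM with Rb1, against 20.1 and 24.1 CPM with vehicle. Its libraries separated fully, with the largest rise of the class, 2.69-fold (log2 fold change 1.43, SE 0.10, adjusted p = 2.0e-07). Its close relative Kat6b had 6.20 and 7.12 CPM with Rb1, against 5.51 and 4.70 CPM with vehicle, and did not pass (adjusted p = 0.0786). Kat6b has a model of 16826 bases: with the length trend removed it was called lower, at -0.53 (adjusted p = 0.0234), while it was called higher with library totals (adjusted p = 0.00512) or when vehicle replicate 1 was left out (adjusted p = 0.0303).

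Kat7, the HBO1 enzyme linked to replication origins, had 138 and 129.7 CPM with Rb1, against 70.9 and 78.2 CPM with vehicle, and rose 1.79-fold (adjusted p = 2.3e-06). Kat2a, the GCN5 enzyme of SAGA and ATAC complexes, had 84.3 and 84.7 CPM with Rb1, against 51.5 and 49.7 CPM with vehicle. It rose 1.67-fold (adjusted p = 5.4e-06), and its short model left it slightly higher, at 0.83 on the log2 scale, with the length trend removed. Kat2b, its paralog PCAF, rose 1.49-fold (adjusted p = 4.6e-04), with 35.2 and 32.0 CPM in Rb1 cells and 20.9 and 24.1 CPM in vehicle cells. Kat14, an ATAC subunit, rose 1.81-fold (adjusted p = 5.9e-06), with 47.4 and 50.2 CPM in Rb1 cells and 25.9 and 28.1 CPM in vehicle cells. All 4 stayed higher with the length trend removed.

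Kat5 and Kat8, enzymes of H4 acetylation, had overlapping groups. Kat5, the TIP60 enzyme of the DNA damage response, had 36.7 and 35.3 CPM with Rb1, against 33.2 and 38.9 CPM with vehicle (adjusted p = 0.993), and its mean lay between the single libraries of the other group. Its model of 2008 bases is in a range where all genes had a median of -0.27, and with the length trend removed it was called higher, at 0.37 (adjusted p = 0.00580). The deposited length is shorter than the merged Kat5 exons in GENCODE M21, so its length range is uncertain, and exons of Rnaseh2c on the opposite strand overlap its own. Kat8, the MOF enzyme of H4K16, had 27.4 and 26.7 CPM with Rb1, against 27.7 and 25.4 CPM with vehicle (adjusted p = 0.818). It was called higher with library totals (adjusted p = 0.0269) and with the length and GC trends removed (adjusted p = 0.00904).

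Among demethylases, 12 of 15 tested members were higher and 2 lower, where 35.7% of all genes were higher and 36.3% lower. Their median log2 fold change was 0.61. With the length trend removed, 8 were higher and 4 lower, with a median of 0.20. The 3 erasers of H3K27 methylation, which oppose Ezh1 and Ezh2, were all higher with a median of 1.10, and remained so with the length trend removed (median 0.63). Kdm7a, which acts on H3K9 and H3K27, had 65.3 and 68.6 CPM with Rb1, against 21.8 and 22.1 CPM with vehicle. Libraries of a group were nearly equal, and the rise was 3.05-fold (log2 fold change 1.61, SE 0.09, adjusted p = 2.5e-08), or 1.03 on the log2 scale with the length trend removed. Kdm6a, the X-linked UTX enzyme, had 19.1 and 18.1 CPM with Rb1, against 8.02 and 9.28 CPM with vehicle, and rose 2.15-fold (adjusted p = 1.5e-05). Kdm6b, the JMJD3 enzyme known to be induced in inflammatory macrophages, had 30.1 and 29.1 CPM with Rb1, against 17.5 and 18.9 CPM with vehicle, and rose 1.63-fold (adjusted p = 7.1e-05).

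The H3K4 demethylases moved in both directions. Kdm1a, the flavin-dependent LSD1 of the CoREST complex, had 186 and 177 CPM with Rb1, against 121 and 117 CPM with vehicle. It rose 1.53-fold (log2 fold change 0.61, SE 0.07, adjusted p = 1.0e-05) and kept 0.45 with the length trend removed. Kdm1b, its paralog, had 13.8 and 16.5 CPM with Rb1, against 12.7 and 13.3 CPM with vehicle, and did not pass (adjusted p = 0.165); Dek exons on the opposite strand cover 9.19% of its exons. With library totals Kdm1b was called higher (adjusted p = 0.00595).

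Kdm5b, the JARID1B eraser of H3K4 trimethylation, had 39.1 and 39.4 CPM with Rb1, against 52.0 and 58.9 CPM with vehicle. Both Rb1 libraries lay below both vehicle libraries, and the level fell to 0.707 of vehicle (log2 fold change -0.50, SE 0.09, adjusted p = 3.7e-04). Its model is 16555 bases long, a range in which 13.7% of all genes were lower, and with the length trend removed its log2 fold change was -1.39. Kdm5a had 108 and 106 CPM with Rb1, against 64.6 and 73.0 CPM with vehicle, and rose 1.55-fold as counted (adjusted p = 3.4e-05). Kdm5a turned to lower with the length trend removed, at -0.16 (adjusted p = 0.0367), and did not pass with the replicate block added (adjusted p = 0.0645). X-linked Kdm5c had 168 and 160.5 CPM with Rb1, against 113 and 128 CPM with vehicle, and rose 1.37-fold (adjusted p = 3.2e-04), a call that ended with the length trend removed (0.06, adjusted p = 0.345) and held with the GC trend removed too (0.21, adjusted p = 0.00548). Kdm5d, its Y-linked copy, had 0 counts in all 4 libraries, which allows up to 0.150 and 0.155 CPM in the Rb1 libraries and 0.180 and 0.178 CPM in the vehicle libraries.

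Erasers of H3K9 and H3K36 were mostly higher, with Kdm4b apart. Kdm4b, which acts on both lysines, had 55.7 and 54.2 CPM with Rb1, against 89.5 and 93.7 CPM with vehicle. It fell to 0.600 of vehicle with no overlap of the groups (log2 fold change -0.74, SE 0.08, adjusted p = 5.7e-06), and to -0.87 on the log2 scale with the length trend removed. Its paralog Kdm4a went the other way, with 154 and 145 CPM in Rb1 cells and 99.8 and 120.0 CPM in vehicle cells, a rise of 1.36-fold (adjusted p = 9.6e-04). Kdm4c had 83.5 and 79.3 CPM with Rb1, against 61.2 and 70.8 CPM with vehicle, and rose 1.23-fold (adjusted p = 0.00987). The Kdm4c call ended without Rb1 replicate 1 (adjusted p = 0.0977) and with the length trend removed (0.06, adjusted p = 0.501). Kdm4d was not tested, with 3 and 2 counts in the Rb1 libraries and 1 count in each vehicle library.

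Kdm3b, an H3K9 demethylase, had 77.6 and 74.6 CPM with Rb1, against 30.6 and 41.6 CPM with vehicle, and rose 2.11-fold (log2 fold change 1.08, SE 0.12, adjusted p = 8.4e-06). Its value with the length trend removed was 0.28 (adjusted p = 0.0129). Kdm2b, an H3K36 demethylase that brings a variant Polycomb complex to CpG islands, had 32.9 and 31.4 CPM with Rb1, against 14.2 and 17.2 CPM with vehicle, and rose 2.04-fold (log2 fold change 1.03, SE 0.11, adjusted p = 8.4e-06). It kept 0.40 with the length trend removed. Kdm2a, its paralog, had 93.6 and 90.4 CPM with Rb1, against 70.5 and 83.8 CPM with vehicle, and rose 1.19-fold (adjusted p = 0.0266). The Kdm2a call ended without Rb1 replicate 1 (adjusted p = 0.153), Rb1 replicate 2 (adjusted p = 0.0791) or vehicle replicate 1 (adjusted p = 0.0539). It turned to lower with the length trend removed, at -0.55 (adjusted p = 9.2e-06). Kdm8, a JmjC protein of disputed histone activity, had 7.70 and 8.46 CPM with Rb1, against 4.43 and 4.52 CPM with vehicle, and rose 1.80-fold (adjusted p = 8.4e-04) with a model of 2389 bases.

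Of the zinc-dependent deacetylases, 5 of 11 were higher, 3 lower and 3 not called, where 35.7% of all genes were higher and 36.3% lower. Their median log2 fold change was 0.17. With the length trend removed, 3 were higher and 4 lower, with a median of 0.11. With the GC trend removed too, 4 were higher and 4 lower, with a median of 0.01. Class I, the nuclear enzymes of the large co-repressor complexes, held Hdac1, the member with the highest FPKM in vehicle cells. Hdac1 had 130.2 and 128 CPM with Rb1, against 203 and 211 CPM with vehicle. Both Rb1 libraries lay far below both vehicle libraries, and the level fell to 0.624 of vehicle (log2 fold change -0.68, SE 0.07, adjusted p = 3.5e-06), with -0.59 once the length trend was removed. Hdac2, which shares the same complexes, had 119 and 121 CPM with Rb1, against 103 and 109 CPM with vehicle. It rose 1.13-fold (log2 fold change 0.18, SE 0.07, adjusted p = 0.0419), a call that ended with the replicate block (adjusted p = 0.0844), without Rb1 replicate 1 (adjusted p = 0.222), without Rb1 replicate 2 (adjusted p = 0.278), by DESeq2 (adjusted p = 0.0906) and with the length trend removed (adjusted p = 0.104).

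Hdac3, the catalytic subunit of the NCoR and SMRT complexes, had 57.8 CPM in both Rb1 libraries, against 79.3 and 73.8 CPM with vehicle. It fell to 0.755 of vehicle (log2 fold change -0.41, SE 0.08, adjusted p = 7.3e-04), and its call ended with library totals (adjusted p = 0.134). Hdac8, the X-linked class I enzyme that acts on cohesin, had 9.64 and 11.1 CPM with Rb1, against 11.9 and 10.9 CPM with vehicle, with overlapping groups (adjusted p = 0.403). Hdac11, the sole class IV enzyme, had 4.20 and 5.62 CPM with Rb1, against 4.67 and 4.34 CPM with vehicle, and also overlapped (adjusted p = 0.614).

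Class IIa deacetylases, which bind MEF2 factors and shuttle between cytoplasm and nucleus, held both the largest rise and the largest fall of the family. Hdac9 (chr12:34047580-34917095, GRCm38, minus strand) had 48.7 and 48.1 CPM with Rb1, against 12.1 and 13.0 CPM with vehicle. It rose 3.86-fold with nearly equal replicates (log2 fold change 1.95, SE 0.10, adjusted p = 1.5e-08), and kept 1.13 with the length trend removed. Hdac7 (chr15:97792664-97844502, GRCm38, minus strand) had 15.4 and 15.5 CPM with Rb1, against 34.4 and 41.7 CPM with vehicle. The Rb1 libraries lay below both vehicle libraries, and Hdac7 fell to 0.407 of vehicle (log2 fold change -1.30, SE 0.12, adjusted p = 1.3e-06). Removing the length trend made that fall larger, at -1.65, since its model of 6755 bases lies in a range where all genes had a median of 0.28.

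Hdac4, another class IIa enzyme, had 30.1 and 28.6 CPM with Rb1, against 13.6 and 14.3 CPM with vehicle, and rose 2.11-fold as counted (adjusted p = 3.1e-06). Its model is 15813 bases long, and with the length trend removed its log2 fold change was 0.21 (adjusted p = 0.0856). With the GC trend removed too, Hdac4 was called higher, at 0.38 (adjusted p = 0.00476). Hdac5 had 74.1 and 74.3 CPM with Rb1, against 65.2 and 67.0 CPM with vehicle, and did not pass (adjusted p = 0.0709). Hdac5 was higher with library totals (adjusted p = 7.1e-04) and when vehicle replicate 2 was left out (adjusted p = 0.00863), and lower with the length trend removed (-0.34, adjusted p = 6.1e-04).

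Both class IIb enzymes were higher. Hdac6, the X-linked cytoplasmic deacetylase of tubulin, had 34.4 and 35.9 CPM with Rb1, against 14.8 and 17.0 CPM with vehicle, and rose 2.21-fold (log2 fold change 1.14, SE 0.11, adjusted p = 1.9e-06). Hdac10, a polyamine deacetylase, had 23.3 and 22.1 CPM with Rb1, against 10.2 and 8.21 CPM with vehicle, and rose 2.46-fold (log2 fold change 1.30, SE 0.13, adjusted p = 4.4e-06). Both stayed higher with the length trend removed, at 0.90 and 1.40 on the log2 scale.

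Sirtuins were the one class with a median below 0, at -0.64. Of the 7, 4 were lower, 2 higher and 1 not called, where 36.3% of all genes were lower and 35.7% higher. The same counts, 4 lower and 2 higher, were found with library totals and with the length trend removed, where the medians were -0.39 and -0.78. With the GC trend removed too, 4 were lower and 3 higher, with a median of -0.67. Sirt2, a mainly cytoplasmic deacetylase of tubulin and of H4K16 in mitosis, had 56.7 and 52.9 CPM with Rb1, against 116 and 111 CPM with vehicle. It fell to 0.483 of vehicle with a wide gap between the groups (log2 fold change -1.05, SE 0.08, adjusted p = 3.7e-07). Sirt6, a nuclear deacetylase of H3K9, had 33.4 and 29.4 CPM with Rb1, against 62.2 and 60.6 CPM with vehicle, and fell to 0.511 of vehicle (log2 fold change -0.97, SE 0.09, adjusted p = 2.0e-06). Sirt7, the nucleolar deacetylase of H3K18, had 54.5 and 53.8 CPM with Rb1, against 97.2 and 90.4 CPM with vehicle, and fell to 0.577 of vehicle (adjusted p = 3.7e-06). Sirt5, a mitochondrial desuccinylase, had 15.3 and 13.3 CPM with Rb1, against 22.9 and 21.5 CPM with vehicle, and fell to 0.644 of vehicle (adjusted p = 5.0e-04).

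Sirt1 and Sirt3 went the other way. Sirt1, the nuclear deacetylase of histones and of transcription factors such as p53 and NF-kB, had 13.6 and 12.9 CPM with Rb1, against 7.30 and 6.36 CPM with vehicle. It rose 1.95-fold without overlap (log2 fold change 0.96, SE 0.15, adjusted p = 1.0e-04). Sirt3, the main mitochondrial deacetylase, had 42.0 and 43.9 CPM with Rb1, against 26.1 and 23.0 CPM with vehicle, and rose 1.75-fold (log2 fold change 0.81, SE 0.10, adjusted p = 1.6e-05). Exons of Ric8a and Psmd13 on the opposite strand cover 7% and 5.73% of the Sirt3 exons. Sirt4, also mitochondrial, had 11.0 and 11.8 CPM with Rb1, against 11.5 and 11.1 CPM with vehicle, and the groups overlapped (adjusted p = 0.922). Sirt4 was called higher with the length and GC trends removed, at 0.42 (adjusted p = 0.0105).

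Per unit of gene length, the deposited FPKM give the order of the members within each group. In Rb1 cells the 4 highest were Kmt5a at 47.0 and 46.2 FPKM, Setd6 at 37.0 and 38.1 FPKM, Hdac1 at 37.8 and 37.1 FPKM, and Kdm1a at 36.0 and 34.1 FPKM. Setd6 and Hdac1 overlapped and cannot be ordered. In vehicle cells Hdac1 stood alone at 58.2 and 60.9 FPKM, followed by Hdac2 at 22.8 and 24.2 FPKM and Kdm1a at 23.0 and 22.4 FPKM. Sirt2, at 22.7 and 22.0 FPKM, and Sirt6, at 22.0 and 21.7 FPKM, came next in vehicle cells, and these 4, from Hdac2 to Sirt6, were too close to their neighbours to be ordered. At the low end of the tested members, Kat6b had 0.368 and 0.422 FPKM with Rb1 and 0.323 and 0.278 FPKM with vehicle.

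Summed over the members of each side, the deposited FPKM describe transcript levels within the naming rule only. Writers and erasers outside that rule, such as Nsd2 and Phf2, are not in the sums. The acetyl erasers also include the mitochondrial Sirt3, Sirt4 and Sirt5, the mainly cytoplasmic Hdac6 and Sirt2, and the polyamine enzyme Hdac10. The 20 methyl writers summed to 206 and 205 FPKM with Rb1, against 114 and 121 FPKM with vehicle. Large terms of that difference were Kmt5a and Setd6. Kmt5a had means of 46.6 FPKM with Rb1 and 17.4 FPKM with vehicle. Setd6, which also methylates RelA, had means of 37.6 FPKM with Rb1 and 19.3 FPKM with vehicle. The 17 methyl erasers summed to 156 and 150.3 FPKM with Rb1, against 109.7 and 121 FPKM with vehicle. Their ratio, writers over erasers, was 1.32 and 1.37 with Rb1, against 1.04 and 0.994 with vehicle. The 8 acetyl writers summed to 101 and 98.6 FPKM with Rb1, against 65.2 and 70.0 FPKM with vehicle. The 18 acetyl erasers, with Hdac1 as the largest term in vehicle cells, summed to 161 and 159 FPKM with Rb1, against 201 and 202 FPKM with vehicle. Their ratio was 0.627 and 0.620 with Rb1, against 0.324 and 0.347 with vehicle. In 3 of the 4 sums the Rb1 libraries were above the vehicle libraries and in the acetyl erasers they were below, and both ratios were higher with Rb1 in both libraries. No test of these sums was run with 2 libraries per group, and they describe transcript levels and not enzyme activity or marks.

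**Figure D4:**
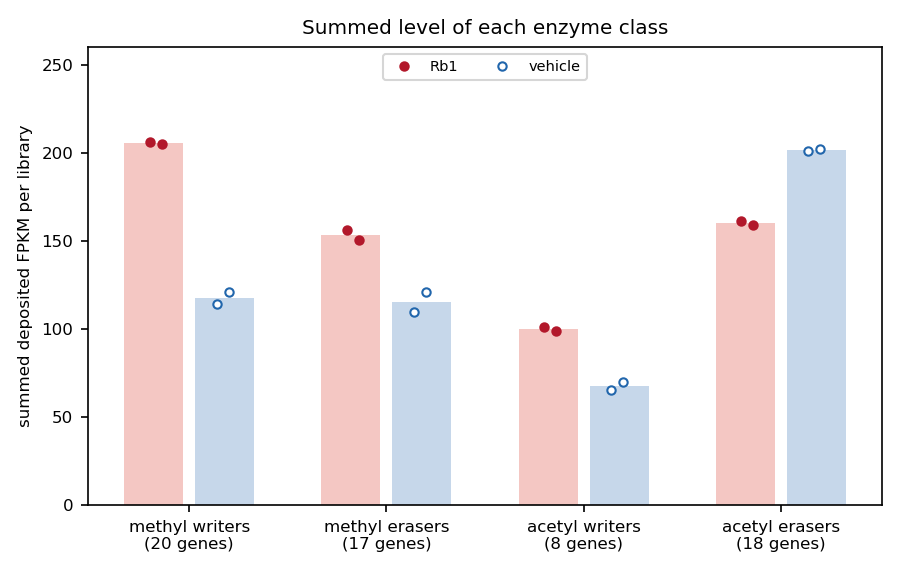
Summed deposited FPKM per library (linear axis from 0) of the 20 methyl writers, 17 methyl erasers, 8 acetyl writers and 18 acetyl erasers; points are the 2 libraries of each group and bars their mean, Rb1 left of vehicle. The acetyl erasers, at 161 and 159 with Rb1 and 201 and 202 with vehicle, are the one sum that is lower with Rb1.

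The plot of summed levels has no length correction beyond that of FPKM itself, which divides by length in every library alike and so keeps the length trend between groups.

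Of the writers outside the naming rule, 18 of 23 tested were higher and 3 lower (median log2 fold change 0.96), where 35.7% and 36.3% of all genes were. Their median model is 8116 bases, and 68.3% of all genes over 8 kb were higher. With length removed, 14 were higher and 4 lower. Nsd2, an H3K36 dimethyltransferase, had 337 and 343 CPM with Rb1, against 86.4 and 103 CPM with vehicle (log2 fold change 1.84, adjusted p = 8.8e-09). Taf1, a TFIID subunit with reported acetyltransferase activity, had 87.0 and 83.7 CPM with Rb1, against 29.8 and 30.8 CPM with vehicle (1.49, adjusted p = 2.9e-08). Smyd3 and Smyd2, which methylate several non-histone proteins, fell, with log2 fold changes of -0.83 (adjusted p = 6.7e-06) and -0.71 (adjusted p = 2.5e-05). Among JmjC relatives outside the rule, 6 of 9 tested were higher and 1 lower, and 3 were higher and 4 lower with the length trend removed. Without either vehicle library the count of lower relatives was 2. Phf2, an H3K9 demethylase, had 43.9 and 45.2 CPM with Rb1, against 12.5 and 14.8 CPM with vehicle (1.71, adjusted p = 8.6e-08). Jmjd1c had a log2 fold change of 0.77 (adjusted p = 7.1e-06), which ended as a call with the length trend removed (-0.18, adjusted p = 0.0537). Jmjd6, a lysyl hydroxylase, was the lower one, with 89.2 and 93.8 CPM in Rb1 cells and 365 and 345 CPM in vehicle cells (-1.96, adjusted p = 1.8e-09).

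Partners of Ezh1 and Ezh2 in Polycomb repressive complex 2 were higher in 7 of 11 cases and lower in 1, with a median of 0.37. Of all genes, 35.7% were higher and 36.3% lower. With the length trend removed, 6 of these partners were higher and 3 lower. Without Rb1 replicate 1, the count of higher partners was 4. Phf19, a Polycomb-like subunit, had 29.1 and 30.0 CPM with Rb1, against 6.05 and 8.51 CPM with vehicle (log2 fold change 2.02, adjusted p = 2.6e-07). Rbbp7, a histone-binding subunit, had 333 and 342 CPM with Rb1, against 173 and 149 CPM with vehicle (1.07, adjusted p = 4.0e-07). Eed, a core subunit, was the lower one, with 59.6 and 64.8 CPM in Rb1 cells and 89.1 and 81.8 CPM in vehicle cells (-0.46, adjusted p = 4.6e-04). Eed lost its call with library totals. With that scaling 10 of these partners were higher and 0 lower, where 45.3% and 27.1% of all genes were. Partners of the H3K4 writers in COMPASS complexes were higher in 9 of 13 cases and lower in 0 (median 0.42), against the same shares of all genes. With the length trend removed, 10 of them were higher and 2 lower. Hcfc1, an X-linked scaffold, had 169 and 158 CPM with Rb1, against 34.4 and 48.2 CPM with vehicle (1.99, adjusted p = 8.8e-08). Psip1, which links Kmt2a and menin to chromatin, had a log2 fold change of 1.03 (adjusted p = 1.7e-07).

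Of the co-repressor partners of the deacetylases, 20 of 33 were higher and 9 lower (median 0.40, where 35.7% and 36.3% of all genes were higher and lower), and 14 higher and 9 lower with the length trend removed. Ncor1, the scaffold that activates Hdac3, had 183 and 181 CPM with Rb1, against 66.7 and 69.8 CPM with vehicle (log2 fold change 1.42, adjusted p = 1.6e-08). Gatad2b, a NuRD subunit, had 207 and 197 CPM with Rb1, against 73.3 and 80.4 CPM with vehicle (1.40, adjusted p = 2.8e-08). Brms1, a Sin3 complex subunit, had 17.5 and 19.9 CPM with Rb1, against 71.2 and 67.8 CPM with vehicle (-1.89, adjusted p = 1.3e-08). Rcor2, a CoREST paralog, had 27.3 and 27.1 CPM with Rb1, against 89.0 and 89.5 CPM with vehicle (-1.71, adjusted p = 8.3e-09). Acetyltransferase complex partners were higher in 27 of 40 cases and lower in 6 (median 0.40), against 35.7% and 36.3% of all genes. DESeq2 called 2 of them lower. With library totals 31 were higher and 2 lower, where 45.3% and 27.1% of all genes were. With the length trend removed, 23 were higher and 8 lower. Trrap and Ep400, shared scaffold and ATPase of the TIP60 complex, had log2 fold changes of 1.84 (adjusted p = 1.2e-08) and 1.71 (adjusted p = 1.0e-08). Taf6l, a SAGA subunit, and Ing2, an ING-family protein also known from a Sin3 deacetylase complex, were lower, at -0.69 (adjusted p = 4.5e-05) and -0.59 (adjusted p = 1.9e-04).

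Enzymes that supply or recycle the cofactors were higher in 12 of 21 tested cases and lower in 3 (median 0.43). Of all genes, 35.7% were higher and 36.3% lower. With the length trend removed, 13 of these enzymes were higher and 3 lower. Nampt, the rate-limiting enzyme of NAD salvage on which sirtuins draw, had 210.4 and 214 CPM with Rb1, against 352 and 346 CPM with vehicle (log2 fold change -0.72, adjusted p = 2.6e-06). Mat2b, the regulatory subunit of S-adenosylmethionine synthesis, had 94.9 and 86.4 CPM with Rb1, against 149.6 and 148 CPM with vehicle (-0.71, adjusted p = 5.9e-06). Ogdh, which consumes 2-oxoglutarate in the citric acid cycle, had 218 and 209.7 CPM with Rb1, against 60.8 and 69.8 CPM with vehicle (1.71, adjusted p = 1.0e-08). Ahcyl1, a relative of the enzyme that clears S-adenosylhomocysteine, had 685 and 677 CPM with Rb1, against 295 and 326 CPM with vehicle (1.13, adjusted p = 2.0e-07).

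Cell cycle genes moved with the same groups. All 20 mitosis genes were higher with Rb1 (median 1.87, and 1.95 with the length trend removed). Of all genes, 35.7% were higher and 36.3% lower. The mitosis genes summed to 2952 and 2957 CPM with Rb1, against 703 and 730.1 CPM with vehicle. Mki67, a proliferation marker, had 294 and 309.9 CPM with Rb1, against 36.2 and 43.5 CPM with vehicle (log2 fold change 2.92, adjusted p = 5.1e-10). Kif11, a spindle motor, had a log2 fold change of 2.64 (adjusted p = 3.3e-10). Of 20 G1/S and replication genes, 14 were higher and 2 lower (median 0.88), against the same shares of all genes. With library totals 17 were higher and 0 lower, where 45.3% and 27.1% of all genes were. Mcm6, a helicase subunit, and Rrm1, a ribonucleotide reductase subunit, had log2 fold changes of 1.52 (adjusted p = 6.6e-09) and 1.57 (adjusted p = 1.0e-08). Ccne2 and Tyms were lower, at -0.30 (adjusted p = 0.00618) and -0.20 (adjusted p = 0.0343); the count of lower genes was 1 without Rb1 replicate 1 and 0 without Rb1 replicate 2. The part of the cell cycle in the level of Kmt5a, Ezh2 or other members was not tested.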

How the data were processed

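RNA of DC2.4 cells was sequenced in pairs on an Illumina instrument, per the labels' protocols. The authors deposited raw counts per gene, FPKM for the same genes and a gene length in bases. The deposited FPKM are counts per kb of that length with a scaling per library. Kit, strand use, aligner, counter and annotation: not given in the sources used here, so overlapping genes cannot be separated. GRCm39 and mm39 are the builds in the submitters' processing notes, but 98.3% of the 54495 table genes found in GENCODE M21 have its GRCm38 coordinates, and coordinates here are GRCm38. The length equals the merged exon length in 98% of genes.

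Counts were tested with edgeR 4.0.16 in R 4.3.3 (quasi-likelihood, TMM, filterByExpr, robust, a two-sided test with no term but group, leaving 2 residual degrees of freedom, Benjamini-Hochberg over 13518 genes, threshold 0.05). Since the labels leave unsaid whether cultures were separate, the p-values reflect only the spread among these samples, which may be technical. The chi-square per degree of freedom between replicates was 2.87 with Rb1 and 11.8 with vehicle, more than sampling noise alone gives. In the labels the batch of a sample is its replicate number, which was taken to pair the samples; the correlation across genes of the deviations of libraries with the same number was -0.06. Floors for a count of 0 are 3 counts per library and cover counting error only.

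Other settings tried were factors by relative log expression, library totals, other count filters, DESeq2 1.42.0, limma 3.58.1 (limma-trend) on log2(FPKM + 1) or log2(FPKM + 0.1) at a minimum mean FPKM of 0.5 or no filter, the replicate block, each library left out, and the length trend removed (loess of each library's log2 CPM deviation on log2 length, span 0.3, as an offset). Removal of the length and GC trends together was added after seeing the data. The procedure was tested on simulated counts, and the outcome is not given here. Members, lists and tests were chosen with earlier results of these data known. Genes given in full were called members with at least 2-fold changes and no overlap, the 2 smallest p per direction and class, and 13 fixed readouts; the other members are given more briefly, and list genes are the 2 smallest p per direction.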

Additional observations from a re-analysis of the deposited data

How the results depend on the processing

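The counts of higher members and of higher writers and erasers stayed within 1.5 times of the reported ones under every alternative run. Removing the length trend raised the count of lower members from 9 to 15 (14 with the replicate block), and removing the length and GC trends gave 15 (16 with the block), with 3 lower writers in each of these 4 fits in place of 0. The difference of medians, writers minus erasers, was 0.44 as reported, 0.34 by limma-trend on log2(FPKM + 1) and 0.33 without its filter, 0.26 and 0.27 with the length trend removed without and with the block, and 0.23 in both fits with the length and GC trends removed. Leaving out each library in turn gave 0.37 to 0.57 for this difference, 37 to 44 higher and 9 to 9 lower members, 21 to 25 higher and 0 to 0 lower writers, and 16 to 20 higher and 9 to 9 lower erasers; in these fits the lone library of a group is assumed to vary like the other group. The replicate block changed the Hdac2 call and no other member's call (42 higher members in place of 43).

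The sign of some log2 fold changes turned. With the length trend removed, Ezh1 had -0.14, Hdac5 -0.34, Kat5 0.37, Kat6b -0.53 (-0.52 with the block), Kdm2a -0.55, Kdm5a -0.16, Kmt2e -0.06, Kmt5b -0.68, Setd3 -0.05 and Setd5 -0.64, and the block changed no other of these values. With the length and GC trends removed these were Ezh1 -0.03, Hdac5 -0.24, Kat5 0.49 (0.50 with the block), Kat6b -0.51, Kdm2a -0.54, Kdm5a -0.19, Kmt2e -0.12, Kmt5b -0.70, Setd3 -0.11 and Setd5 -0.54, and Kdm1b was -0.05, with the same values with the block except Kat5. With library totals Hdac8 was 0.11 and Kat5 0.24. Kat5, at -0.00 as reported, was 0.01 by DESeq2, by limma-trend in its 3 settings and with no count filter, and 0.00 with the block. Leaving out each library in turn gave -0.09 to 0.33 for Hdac11, -0.12 to 0.12 for Kat5, -0.03 to 0.08 for Kat8 and -0.02 to 0.07 for Sirt4. The cause of these shifts was not tested. Kdm4d and Kdm5d had too few counts for a test.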
